A study of Mus musculus with 6 samples.

Results

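Wildtype mouse chondrocytes were compared between day 7 and day 3 of micromass culture, across all 23358 entries of a gene count table. The comparison rests on 1 library per day, 2 of the 6 libraries in the series, so sizes are described with counting intervals and no test was made. The cells were immature chondrocytes taken from the tibial plateau and from the head and condyles of the femur of mice at post-natal day 5, of a strain given as C57BL/6 - mix. Micromass culture, in which cells plated as a dense drop deposit a cartilage-like matrix, used insulin, transferrin and selenium, 0.05 mg/mL ascorbic acid and 10 mM β-glycerol phosphate, and the cells were kept in medium with 2% fetal bovine serum. All groups shared these conditions. The other libraries were wildtype cells at day 14 and Ezh2-deficient cells (Ezh2_cKO in the titles) at days 3, 7 and 14. Ezh2 is the methyltransferase of Polycomb repressive complex 2. The driver of the conditional knockout, the number of animals and any pooling of them are not given in the sources used here.

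Chondrocytes of growing joints secrete a matrix of type II collagen, with types IX and XI at the fibril surface and core, and of aggrecan, a proteoglycan whose sulphated side chains hold water. In the growth plate they divide, enlarge (hypertrophy), switch on type X collagen and matrix proteases, and give way to bone. In culture they can also lose this matrix and make the type I and type III collagens of fibrous tissue and bone, a change long known as dedifferentiation. Freshly isolated cartilage cells can carry small numbers of other joint cells, and several lists of marker genes for such cells are given with the results.

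The wildtype libraries held 70489216 counts at day 3 and 65461350 at day 7. Every count was even, and 1 sequenced fragment was taken as 2 counts. Levels are CPM, counts divided by the library's total in units of 1000000 counts, after TMM scaling of the library sizes (factors 0.939 and 1.07), and intervals are exact 95% intervals of the ratio of fragments, which cover counting error only. A gene was measured when the higher library reached 1 CPM. It is said to have risen or fallen when the libraries were also at least 2-fold apart and the interval excluded 1. The labels name a cartilage cell, and its defining genes were abundant on both days. Col2a1, the main collagen of cartilage, took 7.40% of all counts at day 3 and 5.13% at day 7, and the authors' deposited RPKM values for it were 11940 and 8078, values per length that may be set beside other genes. In the same RPKM units Acan went from 1524 to 570.4, Col1a1 from 115.9 to 1223 and Sox9 from 62.5 to 64.2. Ezh2 was at 24.6 and 40.3 CPM in the wildtype libraries and at 14.7 and 23.03 CPM in the Ezh2-deficient ones. RNA of both sexes was present in each wildtype library, with Xist at 1061 and 1133 CPM and 4 Y-linked genes at summed levels of 90.5 and 62.6 CPM.

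Of 13519 measured genes, 2153 rose (15.9%) and 738 fell (5.46%) between day 3 and day 7. Most genes moved little. The median log2 change was -0.02, and 63.0% of measured genes lay within 1.5-fold. At 4-fold or more, 932 genes were higher and 195 lower, and at 16-fold or more 52 were higher and 35 lower. Counting error alone was small at this depth, with an interval that excluded 1 for 10462 genes, so the fold threshold decided most calls. Rises were commoner among genes of low level, at 30.4% of the lowest of 4 equal groups by mean CPM against 6.13% of the highest group, while falls made up 8.56% and 6.75%. The lowest group begins at a mean of 0.541 CPM. A gene with a mean below 1 CPM was measured only if its libraries differed, so the filter itself favours unequal genes there. Scaling by total counts, without TMM, raises every log2 change by 0.19 and gives 2542 genes higher and 517 lower. Changes below are relative to the TMM scale. Counts of genes within lists are to be read beside the 15.9% and 5.46% over all measured genes.

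**Figure D1:**
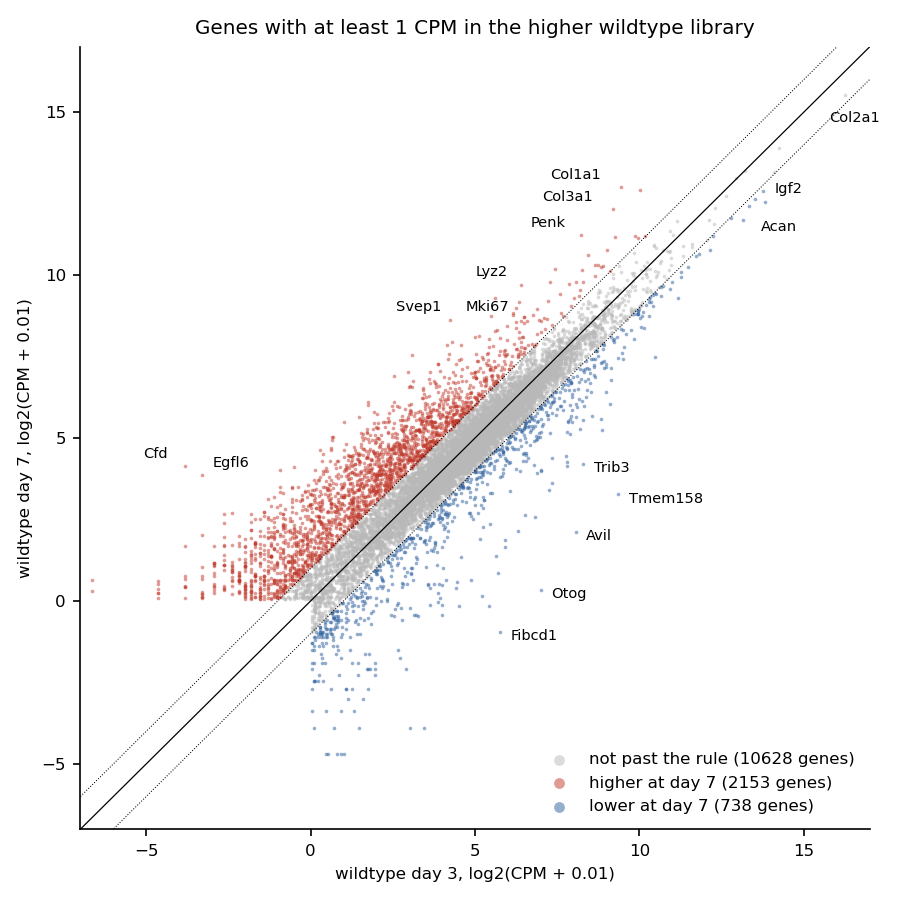
Each point is 1 of 13519 genes, with its wildtype day 3 level on the x axis and its day 7 level on the y axis, both as log2(CPM + 0.01). The solid line marks equal levels and the dotted lines 2-fold. The 2153 red genes rose and the 738 blue genes fell, and Col2a1 and Acan lie below the line at its upper end while Col1a1 and Col3a1 lie above it.

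The cartilage collagens were lower at day 7 in each of 7 genes measured, and 3 of the 7 fell. Col11a2, a chain of the type XI collagen at the core of cartilage fibrils, went from 9058 to 3330.4 CPM, a fall of 2.72-fold (2.70 to 2.74). The type IX chains Col9a2 and Col9a1 went from 3395 to 1539.7 CPM and from 7115 to 3483 CPM, both falls. Col2a1 was at 78869 CPM and 47720.2 CPM, a ratio of 1.65 (1.65 to 1.66) that does not reach 2-fold, and Col11a1, at 17669.8 and 9263 CPM, also missed the threshold. The median log2 change of the list was -0.96, against -0.02 for all measured genes. On total counts 1 of the 7 fell. Together the 7 genes took 11.5% of counts at day 3 and 7.39% at day 7. In bulk RNA of this kind, fewer cells of a type and less RNA per cell cannot be told apart.

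Of 22 measured proteoglycans and secreted proteins of cartilage, 1 fell (4.55%) and 3 rose (13.6%), near the shares of all measured genes (5.46% and 15.9%). On total counts 5 rose. The median log2 change was 0.33, while the share of counts taken by the list went from 3.14% to 2.22%. The gene that fell was Acan, which encodes aggrecan, from 14421 to 4828 CPM, or 2.99-fold (2.97 to 3.00). Most other members stayed within 2-fold. Of these Matn1, a matrilin of the cartilage matrix, was at 4401 and 3289 CPM, and Hapln1, the link protein that ties aggrecan to hyaluronan, was at 5094 and 4238 CPM. Chad, the cell-binding protein chondroadherin, rose from 21.0 to 47.0 CPM and Hapln3 from 1.06 to 3.07 CPM, and 1500015O10Rik, named after its value was seen, from 97.9 to 231 CPM. Of 16 measured enzymes and transporters that build and sulphate the side chains, 5 fell and none rose, with a median log2 change of -0.13 (0.06 on total counts). Papss2, which makes the sulphate donor, fell from 2294 to 623 CPM (3.68-fold, 3.63 to 3.74). The sulphate transporter Slc26a2 fell from 428 to 182 CPM. Xylt1, which starts the chains on the core protein, fell from 481 to 164 CPM, and Csgalnact1, which starts chondroitin sulphate, from 341 to 142 CPM. Chsy3, a chondroitin synthase named after its value was seen, was the fifth. Chst11, a chondroitin sulphotransferase at 859 and 480.5 CPM, did not reach 2-fold.

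Of 23 measured transcription factors of the chondrocyte lineage, 6 rose and 1 fell, with a median log2 change of 0.19. Sox9, the master regulator of cartilage, was at 334 and 306 CPM, a ratio of 1.09 (1.06 to 1.12). Its partners Sox5 and Sox6, named after their values were seen, were at 112 and 78.8 CPM and at 197 and 106 CPM, below the threshold. Runx3 fell from 45.2 to 18.8 CPM. Runx1 rose from 12.4 to 44.0 CPM, Foxa2, a factor of hypertrophy, from 2.45 to 9.13 CPM and the sclerotome factor Pax9 from 1.21 to 5.40 CPM. Hif1a, the oxygen-regulated factor that is highly expressed in avascular cartilage, was at 1063 and 535 CPM, a ratio of 1.99 (1.95 to 2.02) just short of the threshold.

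Hypertrophic genes moved both ways between these days, with 4 of 17 measured higher and 3 lower and a median log2 change of -0.11 (0.08 on total counts). Col10a1, the collagen that marks hypertrophic chondrocytes, was at 366 and 463 CPM, a ratio of 1.27 (1.24 to 1.30). Ihh, a hedgehog ligand made in prehypertrophic cells, was at 6.65 and 5.46 CPM, and Sp7, a factor needed for bone formation, at 24.2 and 22.4 CPM. Runx2 was at 58.1 and 88.0 CPM and Alpl, the alkaline phosphatase of mineralising cells, at 50.8 and 82.3 CPM, both short of 2-fold. The 4 that rose included Mmp13, the collagenase of late hypertrophy, from 286 to 658 CPM, Spp1 (osteopontin) from 519 to 1738 CPM and Ibsp (bone sialoprotein) from 14.4 to 40.5 CPM. Mef2c, named after its value was seen, was the other, from 65.6 to 139.9 CPM. Panx3, a membrane channel of prehypertrophic and hypertrophic cells, fell from 191 to 63.3 CPM and Slc38a3, an amino acid transporter, from 235 to 64.3 CPM, and the factor Runx3 was the remaining member that fell. The wildtype day 14 library held far more of the late genes, at 6127 CPM for Col10a1, 8237 CPM for Ibsp, 1011 CPM for Alpl and 63.8 CPM for Ihh.

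Of 14 genes of the hedgehog and PTHrP loop, 5 rose and 1 fell, with a median log2 change of 0.03. Hhip, a decoy receptor that hedgehog signalling switches on, rose from 19.8 to 248 CPM, or 12.5-fold (11.6 to 13.6). Ptch1, the receptor and a target, rose from 141 to 325 CPM and Gli1, a transcription factor and target, from 25.6 to 69.5 CPM. The transducer Smo, named after its value was seen, was at 252 and 219 CPM. Pthlh, the PTHrP ligand that holds chondrocytes back from hypertrophy, fell from 8.65 to 3.78 CPM and was also named after its value was seen.

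Bone genes rose in part. Of 25 measured osteoblast genes 13 rose and 2 fell, with a median log2 change of 1.06. Among those that rose were Col1a1, from 701 to 6613 CPM (9.44-fold, 9.31 to 9.57), and Col1a2, from 1031 to 6193 CPM, the chains of type I collagen, which fibroblasts make too. Dmp1, a matrix protein of osteocytes, rose from 0.302 to 2.73 CPM and Dlx6 from 0.272 to 1.85 CPM, both still low. Bglap (osteocalcin), which shares near-identical copies with its neighbours, was at 6.41 and 5.55 CPM, and Ifitm5 at 0.302 and 0.540 CPM. Ostn (osteocrin), a secreted peptide first found in bone, fell from 79.9 to 4.41 CPM, or 18.1-fold (15.4 to 21.5). Of 14 genes for phosphate and pyrophosphate handling, 4 rose and 1 fell. The phosphatase Phospho1 rose from 5.41 to 14.4 CPM and the phosphate regulator Phex from 2.87 to 8.62 CPM, whereas Nt5e, the ecto-nucleotidase that makes adenosine, fell from 304 to 71.0 CPM. Mgp, an inhibitor of mineralisation, was at 3076 and 1978 CPM.

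Fibrous matrix genes rose together and to high levels. Of 18 measured collagens of fibrous tissue and basement membrane, 13 rose and 1 fell, with a median log2 change of 2.08. Their share of counts went from 0.805% to 2.98%, and it was 8.58% at day 14. Col3a1, the collagen of loose connective tissue, rose from 581 to 4146 CPM, or 7.13-fold (7.03 to 7.24). The short-chain collagens Col8a1 and Col8a2 rose from 10.4 to 74.6 CPM and from 16.7 to 117 CPM. Col6a3 rose from 1159.6 to 2364 CPM, while the partner chains Col6a1 and Col6a2, named after their values were seen, were at 1673 and 1747 CPM and at 1192 and 1345 CPM. Col15a1, also named after its value was seen, was the 1 that fell, from 132 to 41.2 CPM. Among 26 fibroblast and provisional matrix genes, 20 rose and 2 fell (median 2.03). Thy1, a surface marker of fibroblasts, rose from 4.17 to 43.7 CPM and the growth factor receptor Pdgfra from 43.1 to 222 CPM. Mfap4, a microfibril protein, rose from 0.756 to 11.2 CPM. Vim, the intermediate filament of mesenchymal cells, rose from 611 to 2326 CPM. Fn1 (fibronectin), the most abundant of these, was at 9523 and 9469 CPM and did not change beyond 1.01-fold (1.00 to 1.01).

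Enzymes that crosslink such matrix moved both ways, and most proteases that passed rose. Of 19 crosslinking and processing genes, 5 rose and 3 fell. Lox, the lysyl oxidase that crosslinks collagen and elastin, rose from 49.0 to 629.6 CPM, or 12.8-fold (12.2 to 13.5), and Loxl3 from 59.6 to 204 CPM. Serpinh1, the collagen chaperone, fell from 4820.1 to 2361 CPM. Pcolce2 and Loxl4, named after their values were seen, were the other genes that fell, and on total counts 1 of the 3 remained past the threshold. Of 16 metalloproteinases and their inhibitors, 11 rose and 1 fell. Mmp23 rose from 3.81 to 44.1 CPM and Mmp12, a macrophage elastase, from 20.3 to 106 CPM. Timp2 rose from 403 to 994 CPM, whereas Timp3, the inhibitor bound to cartilage matrix, fell from 1956 to 764 CPM (2.56-fold, 2.52 to 2.60). Adamts4 and Adamts5, the aggrecan-cutting proteases, rose from 4.44 to 23.6 CPM and from 6.68 to 42.5 CPM. They belong to a list of 21 proteases of which 7 rose and none fell, or 11 rose on total counts. The cysteine proteases Ctsb and Ctss, both abundant in macrophages, rose from 426 to 1259 CPM and from 34.7 to 283 CPM.

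Other connective tissue lists also had more members higher than lower, as did all measured genes, of which 15.9% rose and 5.46% fell. Of 15 smooth muscle and myofibroblast genes, 10 rose, among them Acta2 (smooth muscle actin) from 41.8 to 197 CPM and Tagln from 17.0 to 88.4 CPM. Of 8 tendon and ligament genes 6 rose, with the tendon membrane protein Tnmd going from 7.26 to 26.1 CPM and the collagen-binding proteoglycan Fmod from 927 to 2349.8 CPM. Of 15 genes of the joint surface, 9 rose and 1 fell. Abi3bp rose from 51.2 to 318 CPM and Thbs4 from 7.95 to 53.0 CPM. Prg4 (lubricin), the defining gene of surface cells, was at 33.3 and 16.8 CPM, a ratio of 1.98 (1.79 to 2.20) that just missed the threshold in the other direction. Of 22 mesenchymal factors 4 rose (18.2%) and 1 fell (4.55%), near the shares over all measured genes. Twist2 went from 1.30 to 7.05 CPM and Zeb2, which macrophages express as well, from 18.8 to 93.5 CPM.

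**Figure D2:**
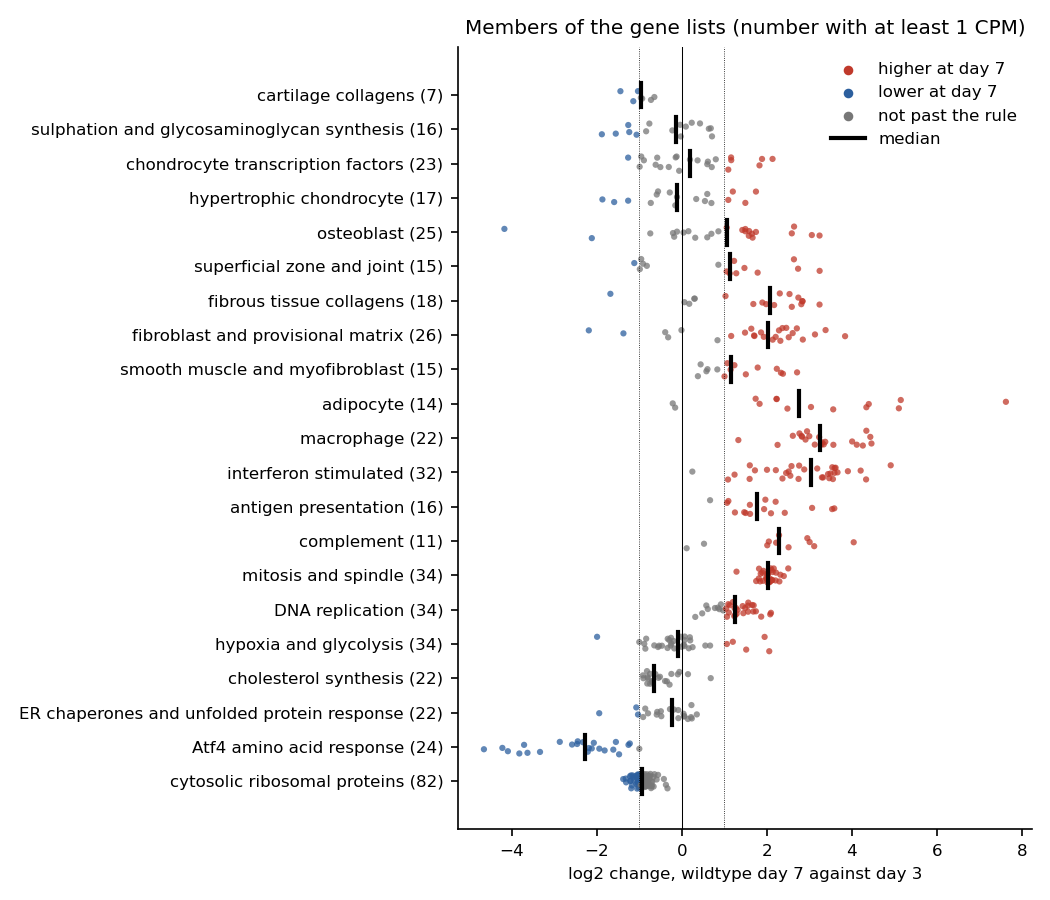
Each point is a measured gene of 21 lists, placed by its log2 change between wildtype day 3 and day 7, and the black bar is the median of the list. Red genes rose, blue genes fell and grey genes did not pass the rule. The macrophage list has the highest median (3.26) and the Atf4 list the lowest (-2.27), and the chondrocyte transcription factors centre near 0.

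Cell division genes rose as a block. Each of 34 measured genes of mitosis and the spindle rose, with a median log2 change of 2.04 and a range from 1.29 to 2.50. Their summed level went from 716 to 3009 CPM. Mki67, the antigen of cycling cells, rose from 90.8 to 422 CPM, or 4.65-fold (4.47 to 4.83). Top2a, which untangles chromosomes, rose from 96.0 to 388 CPM and the centromere protein Cenpf from 24.4 to 139 CPM. The mitotic kinesins Kif2c and Kif23 and the checkpoint kinase Ttk rose by 5.29-fold, 4.99-fold and 4.93-fold. Of 34 DNA replication genes 25 rose and none fell, with a median of 1.25. Tk1, a nucleotide salvage kinase of S phase, rose from 11.8 to 50.03 CPM, the ribonucleotide reductase Rrm1 from 51.6 to 152 CPM and the polymerase Pole from 11.3 to 38.0 CPM. Pcna, the polymerase clamp, was at 86.0 and 155 CPM, below 2-fold. At day 14 the summed level of the mitosis list was 2016 CPM, below day 7 and above day 3.

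Cell cycle inhibitors and D cyclins went both ways, with 5 of 12 higher and 1 lower. Cdkn2a, which encodes the senescence-linked inhibitors p16 and p19, rose from 0.665 to 7.37 CPM, or 11.1-fold (7.16 to 17.98), and was at 21.7 CPM at day 14. Ccnd1 (cyclin D1) rose from 73.2 to 235 CPM and the inhibitor Cdkn2b from 6.38 to 17.1 CPM. Cdkn1a (p21), named after its value was seen, fell from 401 to 172 CPM and was at 407 CPM at day 14. Ccnd2 was at 631 and 424 CPM and Cdkn1c at 487 and 575 CPM. Of 11 measured cluster histone genes, whose near-identical copies make counts uncertain, 5 fell and 1 rose.

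Promoters of the mitosis genes often held the CHR element, a short sequence bound by the cell cycle complexes DREAM and MuvB. RefSeq windows of the GRCm38.p6 build, from 250 bases before to 50 bases after each start, were found for 29 of the 34 genes and for 10704 of all measured genes. The letters TTTGAA were sought on both strands, and each motif was searched separately, so a base could count toward more than 1. They were in the windows of 21 of the 29 mitosis genes (72.4%), in 14.3% of all measured genes with a window and in 17.9% of all 32851 windows of the table. CCAAT, the box bound by NF-Y, was in 79.3% of the mitosis genes and 43.0% of measured genes. It was not particular to mitosis genes, with 100% of 14 cholesterol synthesis genes, 66.7% of 21 Atf4 amino acid response genes and 60.7% of 28 replication genes. In the interferon, hypoxia and immediate early lists it was in 39.1%, 40.6% and 37.5%. The E2F letters TTTCCCGC and TTTGGCGC were in 14.3% and 21.4% of 28 replication genes and in 2.29% and 1.12% of measured genes. A match is a description of the letters and not of binding. Windows of the mitosis genes with the largest rises that held the letters wholly before the RefSeq start, and of the replication gene Cdc6 (5.23 to 16.8 CPM), are shown to place the element beside its gene. For Kif2c and Cdc6 that start, and the stretch printed, lie inside the gene as the deposited coordinates give it. Capitals mark the motif in either orientation, and each runs 5′ to 3′ on the strand of the gene.
Kif2c (CHR, chr4:117178855-117178890, minus strand): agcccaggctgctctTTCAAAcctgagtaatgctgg
Mki67 (CHR, chr7:135716457-135716492, minus strand): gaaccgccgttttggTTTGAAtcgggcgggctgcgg
Ccnb2 (CHR, chr9:70421701-70421736, minus strand): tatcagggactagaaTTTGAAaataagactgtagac
Cdc6 (E2F, chr11:98907998-98908035, plus strand): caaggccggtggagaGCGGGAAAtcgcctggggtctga

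The amino acid response governed by Atf4 fell almost in full. Of 24 measured genes, 23 fell and none rose, with a median log2 change of -2.27, and their share of counts went from 0.546% to 0.130%. Atf4, the transcription factor that is translated when amino acids are scarce or the endoplasmic reticulum is stressed, fell from 723 to 172 CPM, or 4.20-fold (4.08 to 4.32). Trib3, a pseudokinase among its targets, fell from 313 to 18.4 CPM, or 17.1-fold (15.7 to 18.5). Cth, which makes cysteine, fell from 112 to 6.00 CPM and Chac1, which degrades glutathione, from 151 to 10.7 CPM. Atf5, a related factor, fell from 507 to 84.7 CPM. The hormone Fgf21 fell from 22.9 to 0.882 CPM, or 26.0-fold (18.1 to 38.5). The list also held amino acid transporters and synthesis enzymes, of which Slc7a5 (468 to 37.8 CPM), Asns (377 to 51.6 CPM) and Phgdh (249 to 45.2 CPM), named after their values were seen, all fell. Ddit4, likewise named, was the gene that did not pass, at 141 and 70.5 CPM. At day 14 the summed level was 1608 CPM, against 5822 CPM at day 3 and 1207 CPM at day 7.

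Of 22 chaperones and unfolded protein response genes 3 fell and none rose, and 1 fell on total counts. Herpud1, which clears misfolded proteins, fell from 284 to 73.8 CPM, while Hspa5 (BiP), the main chaperone of the reticulum, was at 1461 and 979 CPM. Gdf15, a secreted stress hormone, fell from 38.0 to 4.86 CPM. The C/EBP-ATF composite element TGATGNAAT, with N for any base, was in 3 of 21 windows of the Atf4 list (14.3%) and in 0.533% of measured genes with a window. All 3 are printed, with the motif of either strand in capitals, to show the element beside genes of the list that fell.
Fgf21 (chr7:45615607-45615645, minus strand): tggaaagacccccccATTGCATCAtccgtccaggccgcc
Nupr1 (chr7:126625558-126625596, minus strand): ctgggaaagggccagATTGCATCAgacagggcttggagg
Pycr1 (chr11:120643828-120643866, minus strand): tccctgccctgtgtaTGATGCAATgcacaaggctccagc
Nupr1, a stress-induced nuclear protein, fell from 238 to 47.5 CPM and Pycr1, which makes proline, from 124 to 35.3 CPM, and both were chosen by the motif.

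Genes of the translation machinery were lower at day 7. The 82 measured cytosolic ribosomal proteins each had a log2 change below 0, from -1.38 to -0.34 with a median of -0.93, and 27 of them fell. On total counts the median was -0.73 and 6 fell, so the number depends on the scale while the sign of the median does not. Their share of counts went from 5.97% to 3.50%. Rplp0, of the ribosomal stalk, fell from 2829 to 1221 CPM and Rpl13a from 2451 to 989 CPM. The elongation factors Eef1a1 and Eef2, chosen for their large change in CPM, fell from 10263 to 4449 CPM and from 4571 to 1737 CPM. Reads of these genes could have been split with their processed pseudogenes. Of 76 subunits of oxidative phosphorylation, 4 rose and 1 fell, with a median log2 change of -0.09 (0.10 on total counts).

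Macrophage genes rose without exception. Each of 22 measured rose, with a median log2 change of 3.26, and their summed level went from 381 to 3112 CPM, then 4278 CPM at day 14. Gpnmb, the most abundant member, made up much of these sums, at 171 and 1166 CPM and then 1390 CPM at day 14. Lyz2 (lysozyme) rose from 84.7 to 834 CPM, or 9.84-fold (9.47 to 10.2), and its reads could be split with those of its close copy Lyz1. Csf1r, the receptor that macrophages need to survive, rose from 14.8 to 153 CPM, Cd68 from 13.5 to 108 CPM and Emr1, the F4/80 antigen, from 12.1 to 113 CPM. The complement genes C1qa, C1qb and C1qc rose from 2.03 to 45.2, from 3.36 to 68.5 and from 3.36 to 64.6 CPM. Defining genes of other blood lineages were at or near 0. The T cell gene Cd3e was at 0.0302 and 0.0284 CPM, and the neutrophil genes S100a8 and S100a9 were at or below 0.484 CPM. The measured neutrophil genes Camp and Mmp8 rose, from 0.484 to 1.79 CPM and from 0.846 to 4.15 CPM, and Lck, a kinase of T cells, fell from 1.69 to 0.711 CPM, a call lost with a prior count of 20 (log2 change -0.98). In osteoclasts, which share ancestry with macrophages, 1 of 6 measured genes rose. Atp6v0d2 rose from 3.87 to 23.4 CPM, while Acp5 was at 4.32 and 8.33 CPM, Ctsk at 169.6 and 204 CPM and Calcr at 0 and 0.0569 CPM. Csf1, the ligand of Csf1r, was at 162 and 194 CPM.

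Interferon-stimulated genes rose in 31 of 32 cases, with a median log2 change of 3.03. Bst2 (tetherin), which holds budding virus at the cell surface, rose from 14.2 to 95.2 CPM. The antiviral genes Oasl2 and Gbp3 rose from 1.60 to 32.9 CPM and from 1.27 to 19.4 CPM, and the GTPase Iigp1 from 0.514 to 16.3 CPM, or 31.8-fold (19.7 to 54.9). Ifi44, named after its value was seen, was the exception, at 15.8 and 18.7 CPM. The summed level of the list was 218 CPM at day 3, 957 CPM at day 7 and 693 CPM at day 14. The core of the interferon response element, GAAANNGAA on either strand with N for any base, was in 16 of 23 windows of the list (69.6%) and in 8.46% of measured genes with a window. The sites that lay wholly before the RefSeq start in the genes with the largest rises are shown for comparison of their cores. Ifit1, which binds viral RNA, and the GTPase Gbp2 were chosen by the motif and rose from 2.90 to 35.3 CPM and from 1.30 to 14.96 CPM.
Gbp3 (chr3:142559991-142560029, plus strand): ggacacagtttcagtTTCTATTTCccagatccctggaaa
Ifit1 (chr19:34640790-34640828, plus strand): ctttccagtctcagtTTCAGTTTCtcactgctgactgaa
Gbp2 (chr3:142620590-142620628, plus strand): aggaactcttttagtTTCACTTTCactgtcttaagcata

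Antigen presentation, complement and inflammatory genes rose beside these. Of 16 antigen presentation genes 15 rose and none fell, with B2m, the light chain of class I molecules, going from 149.9 to 585 CPM and the immunoproteasome subunit Psmb8 from 1.30 to 15.9 CPM. Of 11 complement genes 9 rose, among them C3 from 11.6 to 54.0 CPM and the inhibitor Serping1 from 0.665 to 11.4 CPM. Of 24 inflammatory mediators 16 rose and 1 fell. The chemokine Cxcl12 rose from 14.5 to 156 CPM (10.8-fold, 9.80 to 11.8) and the adhesion molecule Vcam1 from 6.11 to 63.9 CPM. Lcn2, named after its value was seen, fell from 56.5 to 14.4 CPM. The summed macrophage level, 381 and 3112 CPM, rose between these days, as did the interferon, antigen presentation, complement and inflammatory sums. At day 14 the interferon sum was lower than at day 7 (957 and then 693 CPM), and the other sums were higher. The Ezh2-deficient day 7 library had a lower macrophage sum than wildtype (2481 CPM). Its interferon sum (1656 CPM) and its antigen presentation, complement and inflammatory sums were higher. The part of macrophages in these lists was not tested.

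Fat cell genes were among the largest rises. Of 14 measured adipocyte genes 12 rose and none fell, with a median log2 change of 2.76. Cfd (adipsin; chromosome 10, 79890853 to 79892656, mm10) went from 0.0605 CPM, which is 2 fragments, to 17.6 CPM, a ratio of 292 with an interval from 80.4 to 2414. The hormone Adipoq (adiponectin) rose from 1.57 to 32.4 CPM, Fabp4, a fatty acid carrier that macrophages also make, from 8.13 to 96.2 CPM and the lipid droplet protein Plin1 from 2.69 to 22.3 CPM. Several were lower again at day 14, with Adipoq at 4.78 CPM and Plin1 at 4.90 CPM. Lpl (lipoprotein lipase) rose from 90.0 to 422 CPM. Enzymes of fatty acid synthesis moved both ways, with 1 of 11 higher and 3 lower, or 1 lower on total counts. Srebf1, their regulator, fell from 502 to 153 CPM and the desaturase Scd2 from 2439 to 1084 CPM, while Thrsp rose from 2.39 to 15.6 CPM. None of 22 cholesterol synthesis genes passed in either direction, with a median log2 change of -0.65. The largest of their log2 differences was that of Cyp51, at 269 and 143 CPM.

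Markers of further cell types were low or mixed. Of 4 measured endothelial genes 1 rose, the receptor Kdr, from 0.937 to 4.35 CPM, while Pecam1 and Cdh5 stayed below 1 CPM on both days. Of 5 measured muscle genes 1 rose, Actn3, from 0.393 to 1.93 CPM, and none fell, though 3 had log2 changes below 0 and the median was -0.75. Acta1 was at 1.60 and 0.939 CPM, short of 2-fold, and Myog and Ckm were at or below 0.114 CPM. In the neural and Schwann list 2 of 5 fell, and Prph, a neuronal filament, went from 8.10 to 0.853 CPM. Sox10 was at 0.181 and 0.228 CPM. No mast cell or erythroid gene reached 1 CPM. The keratinocyte markers Krt5 and Krt14 were at 0.181 and 0.0284 CPM and at 0.0907 and 0 CPM. In the keratinocyte list Krt10 was at 4.99 and 4.44 CPM, Trp63 rose from 1.66 to 6.66 CPM and Cdh1 from 0.181 to 1.51 CPM. Dsp fell from 1.21 to 0.569 CPM, a call lost on total counts (log2 change -0.86), with a prior count of 20 and with the RPKM values. The summed levels of the macrophage and adipocyte lists grew from 381 to 3112 CPM and from 232 to 824 CPM, and their part in the matrix genes was not tested.

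**Figure D3:**
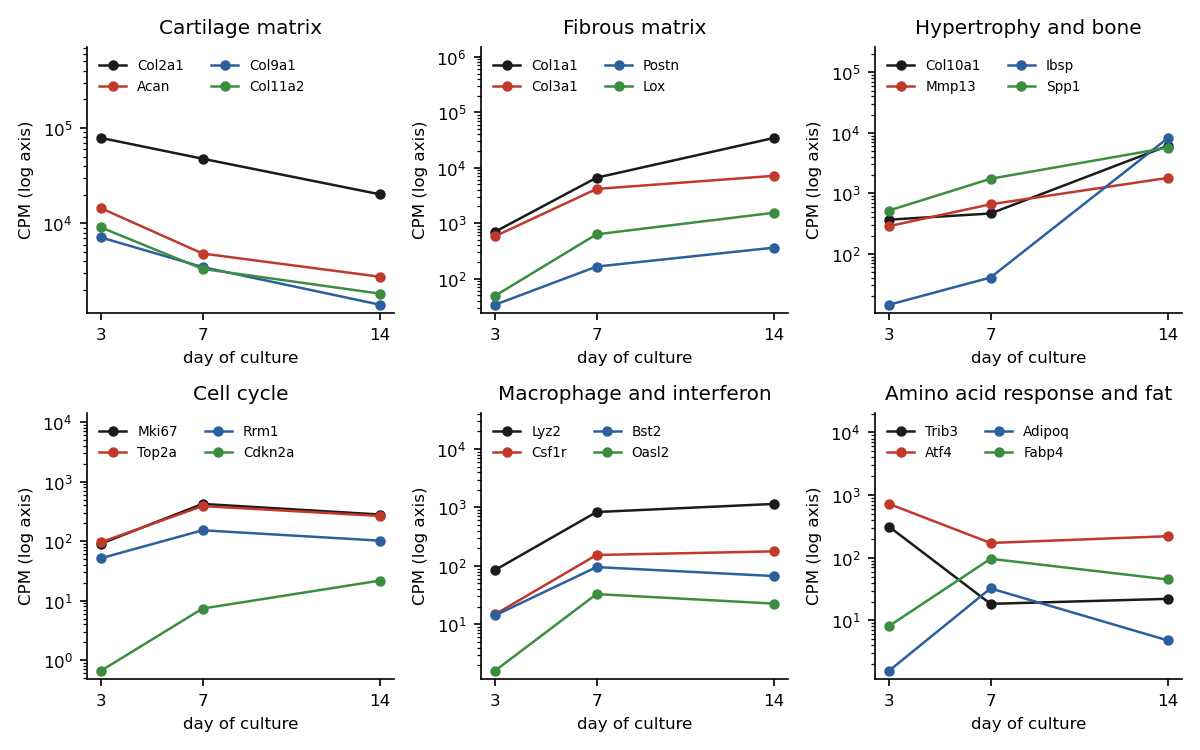
Levels of 24 genes in CPM (log axis) at days 3, 7 and 14 in the wildtype libraries, 1 library per day, in 6 panels by role. The 4 cartilage genes are lower at each later day, the 4 fibrous matrix genes are higher, Ibsp goes from 40.5 to 8237 CPM after day 7, and Adipoq peaks at day 7.

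Growth factor genes moved in opposite directions within families. Igf2 and the neighbouring imprinted RNA H19 were among the most abundant transcripts at day 3 and fell from 13731 to 6126 CPM and from 11783 to 5155 CPM, or 2.24-fold (2.23 to 2.25) and 2.29-fold (2.27 to 2.30). Igf1 rose from 7.95 to 95.5 CPM, or 12.01-fold (10.6 to 13.7). The binding proteins Igfbp2 and Igfbp3 rose from 3.75 to 38.7 CPM and from 3.36 to 20.8 CPM. In all 5 of 16 IGF genes rose and 4 fell, or 2 fell on total counts, where Igf2 and H19 no longer passed. Of 16 FGF genes 9 rose and 2 fell. The ligands Fgf7 and Fgf10 rose from 8.34 to 52.9 CPM and from 1.42 to 10.5 CPM, and Etv4, a transcription factor that FGF signalling induces, from 1.18 to 6.03 CPM. Fgfr3, the receptor that restrains growth plate chondrocytes, fell from 1241 to 433 CPM (2.87-fold, 2.81 to 2.92), while Fgfr1 was at 145 and 262 CPM.

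Of 12 secreted Wnt antagonists 6 rose and none fell, with Sfrp2 going from 5.77 to 120.4 CPM (20.9-fold, 18.03 to 24.2), Dkk3 from 18.3 to 173 CPM and Frzb, first isolated from cartilage, from 244 to 529 CPM. Of 10 ligands and R-spondins 3 rose and 3 fell. Wnt11 fell from 12.2 to 3.64 CPM and Wnt4 from 9.07 to 3.38 CPM, and the amplifier Rspo2 rose from 2.00 to 21.3 CPM. Of 17 receptors and targets 4 rose (23.5%) and 1 fell (5.88%), the feedback inhibitor Nkd1, from 41.4 to 12.1 CPM. Of 31 BMP and GDF genes 6 rose (19.4%) and 3 fell (9.68%), against 15.9% and 5.46% of all measured genes. Bmp3 rose from 11.0 to 58.9 CPM, Bmp4 from 2.21 to 9.47 CPM and the follistatin-like protein Fstl1 from 156 to 877 CPM. Of 18 TGF-beta genes 7 rose and 1 fell, with Ltbp2, a protein of the latent complex family, rising from 16.4 to 83.1 CPM and Tgfbi falling from 314 to 135 CPM. In the Notch list 3 of 8 rose and 1 fell, with the ligand Jag1 at 4.29 and 16.4 CPM and the receptor Notch1, the 1 that fell, at 86.4 and 38.3 CPM.

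Of 34 hypoxia and glycolysis genes 5 rose (14.7%) and 1 fell (2.94%), and 28 did not pass. Over all measured genes the shares were 15.9% and 5.46%. Ldha and Pkm2, enzymes of the last steps of glycolysis, were at 1899 and 1679.5 CPM and at 2095 and 2389 CPM. Car9, a carbonic anhydrase induced by low oxygen, rose from 30.7 to 118 CPM and the peptide Adm from 2.93 to 12.3 CPM. Ero1l, an oxidase of the reticulum, fell from 565 to 142 CPM. The HIF letters ACGTG were in 71.9% of 32 windows of this list and in 29.1% of measured genes with a window. Of 20 antioxidant genes 4 rose (20%) and 1 fell (5%), near the shares over all measured genes. The extracellular dismutase Sod3 rose from 19.9 to 129 CPM and the haem oxygenase Hmox1 fell from 287 to 106 CPM. Of 21 immediate early genes 6 rose and 1 fell, though none fell on total counts, with the growth-responsive factor Egr1 going from 26.5 to 76.1 CPM. Of 11 genes of Polycomb repressive complex 2 and its partners 1 rose, Phf19, from 5.32 to 15.1 CPM, and Ezh2 had a ratio of 1.64, below the threshold. Of 22 Hox genes 1 rose, Hoxa13, from 0.453 to 1.45 CPM.

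The largest falls of all named genes with at least 5 CPM came from genes that no list held, apart from Fgf21. Fibcd1, a receptor that binds acetylated sugars (chromosome 2, 31813290 to 31846005, mm10), fell from 54.7 to 0.512 CPM, or 107-fold (67.5 to 181). Otog (chromosome 7, 46240987 to 46311434), known from the acellular membranes of the inner ear, fell from 129 to 1.25 CPM. Tmem158 (chromosome 9, 123259057 to 123260789), a membrane protein induced by Ras, fell from 658.5 to 9.64 CPM, or 68.3-fold (61.3 to 76.3). Avil, an actin-binding protein of the villin family, fell from 269 to 4.32 CPM and the fructose transporter Slc2a5 from 42.7 to 0.882 CPM. Car6, a secreted carbonic anhydrase, fell from 60.3 to 3.13 CPM and Dlg2, a scaffold protein of synapses, from 52.5 to 1.82 CPM. The other members of the 15 were Akr1b7, Sspo, Fut1, Ccdc155, Cntnap3, Cyb5r2 and Trim66, and they fell to between 0.0569 and 2.62 CPM.

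The 15 largest rises mixed matrix, fat, macrophage and interferon genes. Egfl6, a secreted protein with EGF repeats (chromosome X, 166523007 to 166585716), went from 3 fragments (0.0907 CPM) to 14.6 CPM, a ratio of 161 with an interval from 54.6 to 781. Svep1, a large adhesion protein of the matrix, rose from 18.8 to 397 CPM, or 21.1-fold (19.5 to 22.9), and Steap4, a metalloreductase found in fat and inflamed tissue, from 8.40 to 188 CPM. Cdh3 (P-cadherin) rose from 0.272 to 6.34 CPM, the chemokine Ccl6 from 0.695 to 17.3 CPM and the interferon-induced GTPase Ifi47 from 0.151 to 5.20 CPM. Car3, Cidec and Adipoq from the adipocyte list, C1qa and C1qb, Iigp1, Sfrp2, Cldn19 and Cfd made up the rest. By absolute change, Col1a1, Col1a2 and Col3a1 rose most, followed by genes that included Penk, the enkephalin precursor, from 299 to 2379 CPM, and the imprinted gene Mest, from 349.8 to 1564 CPM.

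**Figure D4:**
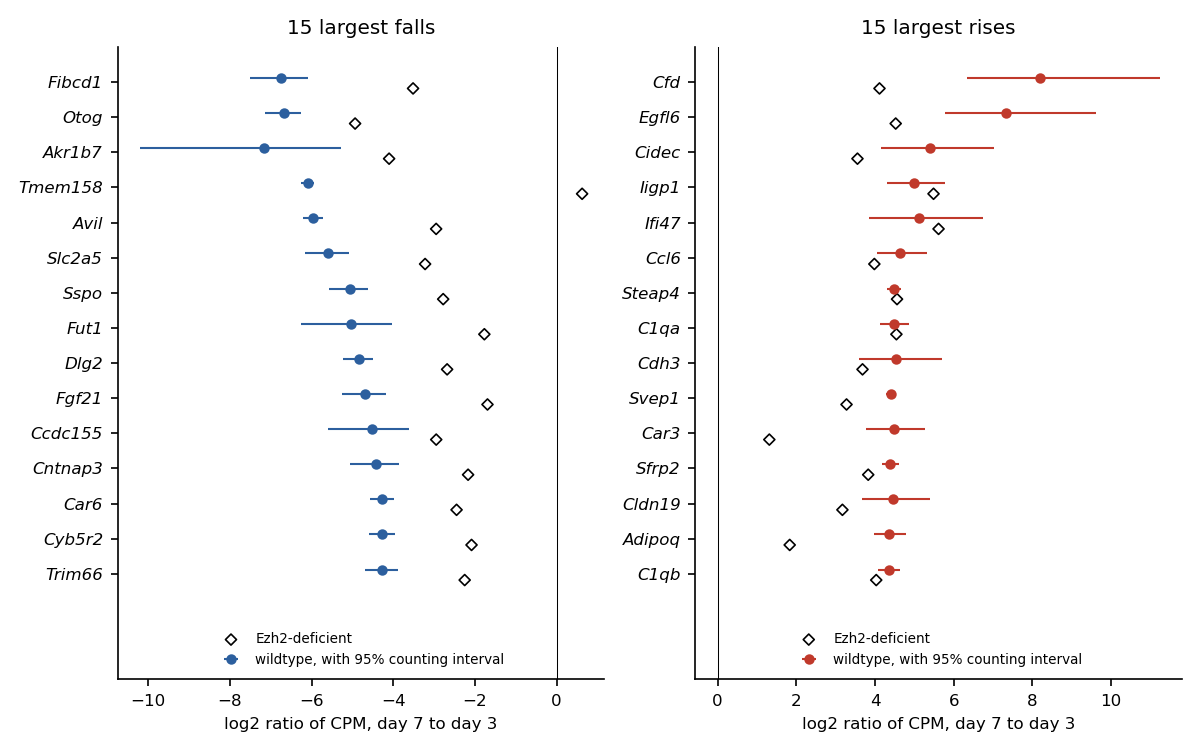
The 15 named genes with the largest falls (left) and rises (right) among those with at least 5 CPM in the higher library, ordered by log2 change with the prior count. Filled circles are the log2 ratio of CPM in the wildtype libraries with 95% counting intervals, and open diamonds the same ratio in the Ezh2-deficient libraries. Tmem158 is the gene of the left panel whose diamond lies above 0.

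The Ezh2-deficient libraries of the same days give a second pair, from other cells and another genotype, and are set beside the wildtype values as a description. In that pair 1829 genes rose (13.5%) and 764 fell (5.63%). Of the 2153 genes that rose in wildtype, 1504 also rose there, which is 69.9% of the wildtype list and 82.2% of the Ezh2-deficient list. Of the 738 that fell, 443 fell in both, or 60.0% and 58.0%. A further 4 genes rose in wildtype and fell in the other pair, and none went the opposite way. Across 13312 genes measured in both, the log2 changes had a Pearson correlation of 0.90 and a Spearman correlation of 0.87, over genes that are not independent replicates. The differences between genotypes named here were not tested.

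List medians of both pairs are set side by side here, and no difference between them was tested. Mitosis genes had a median log2 change of 2.04 in wildtype and 0.97 in Ezh2-deficient libraries, where 13 of 34 rose, and Mki67 went from 117 to 278 CPM there. DNA replication genes had medians of 1.25 and 0.53, and 25 of 34 rose in wildtype against 1 of 34 in the Ezh2-deficient pair. The Atf4 list had medians of -2.27 and -1.30, and 19 of 24 fell in the Ezh2-deficient pair, with Trib3 at 311 and 82.3 CPM. Adipocyte genes stood at 2.76 and 1.83. At day 3 Adipoq was at 11.6 CPM and Car3 at 14.2 CPM in Ezh2-deficient cells, against 1.57 and 0.514 CPM in wildtype. Cartilage collagens had medians of -0.96 and -1.34, and all 7 fell in the Ezh2-deficient pair, where Col2a1 went from 78231 to 33586 CPM. Interferon genes had medians of 3.03 and 3.96, with 32 of 32 higher in the Ezh2-deficient pair. Macrophage genes had medians of 3.26 and 3.30. Ribosomal protein genes had medians of -0.93 and -0.63. Col10a1 was at 441 and 211 CPM in the Ezh2-deficient libraries, a fall, against 366 and 463 CPM in wildtype. Tmem158 was at 397 and 614 CPM there, and it stayed at 545.8 CPM at day 14 against 6.83 CPM in wildtype.

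**Figure D5:**
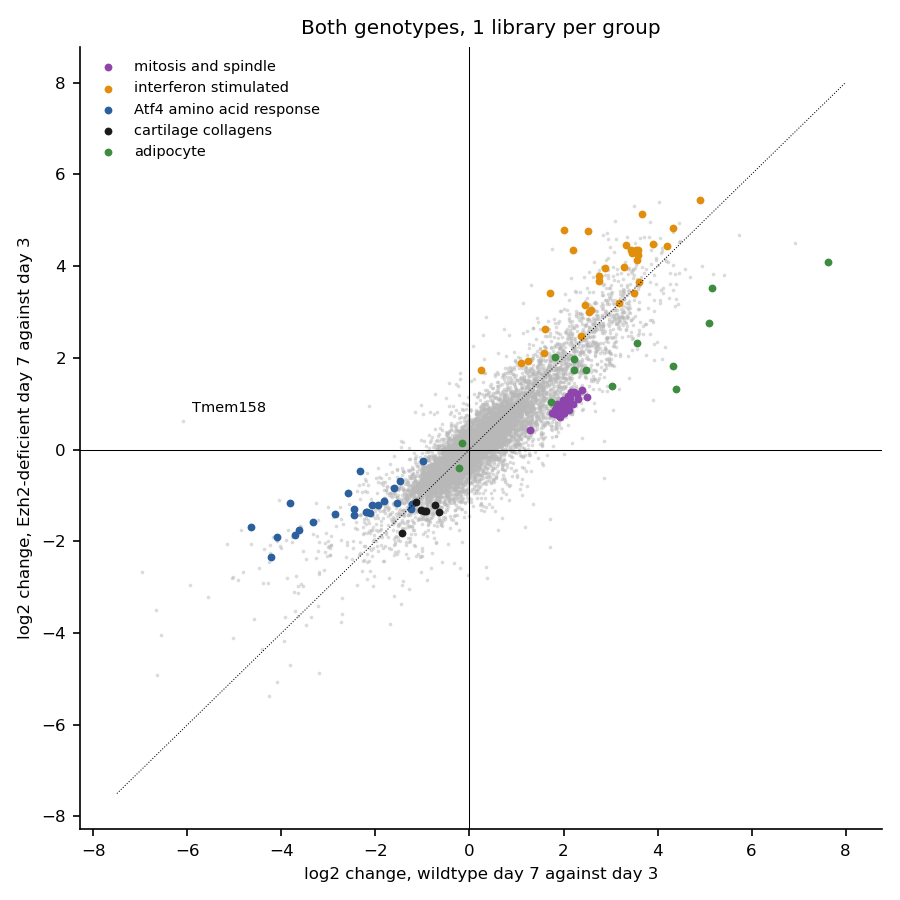
Each grey point is a gene measured in both genotypes, with its log2 change from day 3 to day 7 in wildtype on the x axis and in Ezh2-deficient libraries on the y axis. The dotted line marks equal change. The mitosis genes lie below it (medians 2.04 and 0.97), 31 of 32 interferon genes above it (3.03 and 3.96), and Tmem158 stands apart at the left.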

How the data were processed

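RNA was measured in 6 libraries of mouse chondrocyte micromasses, with 1 library for each genotype and day, extracted as total RNA with the miRNeasy Micro kit. The authors deposited whole-number counts per gene and RPKM values side by side. Per the submitters' processing notes, CASAVA 1.9, TopHat 12.0.6 and HTSeq were used with mm10, and the HTSeq version, the annotation and the strand setting are not given in the sources used here. Genes that overlap or have near-identical copies may therefore share counts. RPKM values, the authors' own, were used as a level per length and as an alternative unit. No processed file gives a test, and none was made here.

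Counts were scaled with TMM factors over the 6 libraries (edgeR 4.0.16, R 4.3.3) and read as CPM in Python 3.11.15 with scipy 1.17.1. Log2 changes used a prior count of 2, scaled to library size. Exact (Clopper-Pearson) 95% intervals of each ratio came from fragments, at 2 counts each. The intervals leave out differences between cultures, which 1 library per group cannot give. A floor of 3 fragments was set separately. Thresholds were 1 CPM, 2-fold and an interval without 1. The calculation was tested on simulated data.

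The comparison and the 56 gene lists were chosen with earlier results of these data known. Named genes are the 15 with the largest log2 change each way at 5 CPM or more, the 10 with the largest CPM difference each way, up to 4 called and 2 most abundant per list, a short set of marker genes and any gene called in opposite directions in the genotypes. Predicted and small RNA symbols were left out. Other genes were named after their values were seen, as stated there. Alternatives were RLE, upper-quartile, total-count and 2-library TMM scaling, a filter of 5 CPM or none, thresholds of 1.5-fold and 4-fold, a prior count of 20, and the RPKM values. Results for 3 genes of these lists are not reported here.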

Additional observations from a re-analysis of the deposited data

Results flagged for a closer look

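A set of 4 genes passed the 2-fold rule upward in wildtype and downward in Ezh2-deficient libraries, each with 1 library per group, and the difference between the genotypes was not tested. All 4 were low, and they were named after their values were seen. Kcnf1, a potassium channel subunit, went from 0.967 to 3.21 CPM in wildtype (log2 change 1.70) and from 1.54 to 0.331 CPM in Ezh2-deficient cells (-2.13). Cyp1a1, the enzyme induced by the aryl hydrocarbon receptor, went from 0.877 to 2.93 CPM (1.71) and from 1.64 to 0.560 CPM (-1.51). Pkp2, a protein of desmosomes, went from 0.514 to 1.37 CPM (1.36) and from 1.54 to 0.662 CPM (-1.18). Ano5, a membrane protein of the anoctamin family, went from 0.756 to 1.76 CPM (1.19) and from 1.13 to 0.331 CPM (-1.70).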

How the results depend on the processing

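The counts of 2153 genes higher and 738 lower at day 7 stayed within 1.5 times under each other scaling, filter, prior count and unit tried. They ranged from 1529 to 2631 higher and from 517 to 927 lower. The fold threshold moved them further. At 4-fold 932 genes were higher and 195 lower, and at 1.5-fold 1858 were lower. The higher genes made up 74.5% of those called, 83.1% on total counts, 81.2% with the authors' RPKM values and 62.7% at 1.5-fold, and these 2 unit and scaling choices shifted the median by 0.19 and 0.16 on the log2 scale. On total counts 2670 of the 2891 called genes were shared. On that scale the 1 gene that fell in each of the hedgehog, Notch, mesenchymal, joint surface, immediate early and keratinocyte lists no longer passed, 3 Hox genes and 2 osteoclast genes rose, and the medians of the sulphation, hypoxia, IGF, Wnt target, hypertrophic, Hox and oxidative phosphorylation lists went from below to above 0. No named gene reversed direction among those called. The counting intervals do not cover the choice of scale. On total counts the log2 change of 178 named genes lay outside their interval and that of 161 within it, and with the RPKM values 163 and 176. No paired analysis was possible because each group has 1 library, and for the same reason no replicate could be left out. Depth limits genes near the floor of 3 fragments (0.0907 CPM at day 3 and 0.0853 CPM at day 7).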
